A study of Mus musculus with 6 samples.

Results

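The regions described here were open in every day 0 library of mouse brown pre-adipocytes, kept a peak in only some day 1 libraries, and lay away from the ends of coding genes. They were selected on the deposited peak calls, as merged regions with a peak in 3 of 3 day 0 lists and in 1 or 2 of 3 day 1 lists, with a midpoint more than 1 kb from either end of every protein-coding gene. The rule found 6179 such partly kept distal regions among 68913 merged regions of the series, with coordinates in mm10. The calls that chose them are the measured outcome, so differences between day 1 and day 0 within them are a description and were not tested. Chromatin was probed by ATAC-seq, in which a transposase cuts and tags accessible DNA. The study has 3 libraries of cells at day 1 of brown adipocyte differentiation and 3 libraries of cells at day 0, all labelled as wild-type brown pre-adipocytes of a line named BAT. The labels do not state how the cells were made or induced, or whether the libraries of a day came from separate cultures, so the spread between them may be technical. The title of the series concerns RUNX1 and RUNX2 deletion in adipocytes, and the libraries described here carry no such deletion by their labels.

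Open DNA away from promoters often marks enhancers, which transcription factors bind to raise transcription of genes that may lie far off. During adipocyte differentiation the C/EBP factors act early and help to switch on PPARγ, and EBF2 and PRDM16 are tied to the brown fat fate. RUNX and AP-1 factors are known to occupy enhancers in fibroblast-like precursor cells. An ATAC-seq peak shows accessibility in a mixture of cells, and the gene nearest to it need not be the one it acts on. In such bulk samples, fewer cells with an open site and less opening per cell cannot be told apart.

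Day 1 replicate 3 stood apart, with 12556 peaks from 7302457 fragments against 20069 and 23274 peaks from 4919755 and 5603667 fragments in day 1 replicates 1 and 2. The day 0 libraries held 8127635 to 11011889 fragments and 39211 to 55511 peaks. Of 10 brown pre-adipocyte markers, 3 had a peak at a gene end, Pdgfrb and Col1a1 each in 2 of 3 day 1 and 3 of 3 day 0 lists and Ebf2 in 1 and 3. The others, Pdgfra, Cd34, Dlk1, Zfp423, Thy1, Lum and Dcn, had none on either day. Peaks were found at 1 of 5 endothelial, 0 of 5 immune and 0 of 4 muscle marker gene ends at day 1, and at 1 of each at day 0. Kdr had them in 1 of 3 day 1 and 3 of 3 day 0 lists, Cd68 in 3 of 3 day 0 lists and Myod1 in 1. Of 5 mature adipocyte markers, 4 had a day 1 peak, Cidec in 3 lists, Plin1 and Fabp4 in 2 and Adipoq in 1. At day 0, 2 had a peak, Fabp4 in 3 lists and Adipoq in 1, and Ucp1 had none on either day. Over all 21887 coding genes, 55.5% had no gene-end peak in any day 1 list and 48.4% had none at day 0. The part of other cell types in the results below was not tested.

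Some distal regions cover an annotated transcript start that lies inside or between the outermost ends of the coding genes, so their sequence can be shown. The sequences below are RefSeq windows of build GRCm38.p6, which run from 250 bases before to 50 bases after a start. They are the 4 coding windows lying whole in the partly kept regions with the highest day 0 fold enrichment, and the highest such window of a long noncoding RNA. Capitals mark matches to an AP-1, RUNX, C/EBP or TEAD motif, which were searched on both strands. The letters were TGANTCA for the AP-1 motif and TGTGGT for the RUNX motif. For the C/EBP motif they were TTGCNNAA, where N is any base, and for the TEAD motif GGAATG.
9530077C05Rik, chr9:22411297-22411596, plus strand: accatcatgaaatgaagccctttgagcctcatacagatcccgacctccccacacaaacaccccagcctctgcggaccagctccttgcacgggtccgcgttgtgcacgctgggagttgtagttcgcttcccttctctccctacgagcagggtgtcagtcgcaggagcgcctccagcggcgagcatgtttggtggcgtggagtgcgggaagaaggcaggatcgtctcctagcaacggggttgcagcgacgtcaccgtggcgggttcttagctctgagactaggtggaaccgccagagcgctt
Zfp33b, chr5:104571422-104571721, plus strand: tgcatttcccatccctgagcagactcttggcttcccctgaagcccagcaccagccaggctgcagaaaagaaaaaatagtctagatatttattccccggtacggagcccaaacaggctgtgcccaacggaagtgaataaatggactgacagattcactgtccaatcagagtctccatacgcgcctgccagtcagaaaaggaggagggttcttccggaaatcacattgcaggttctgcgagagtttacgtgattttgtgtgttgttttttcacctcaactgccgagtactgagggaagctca
Sgcd, chr11:47379276-47379575, minus strand: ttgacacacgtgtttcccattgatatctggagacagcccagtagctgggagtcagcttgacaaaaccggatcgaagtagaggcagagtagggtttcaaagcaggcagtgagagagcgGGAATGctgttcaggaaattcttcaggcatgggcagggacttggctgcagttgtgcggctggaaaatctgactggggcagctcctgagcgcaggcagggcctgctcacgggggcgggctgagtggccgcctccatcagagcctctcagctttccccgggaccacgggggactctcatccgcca
Abhd4, chr14:54259033-54259332, plus strand: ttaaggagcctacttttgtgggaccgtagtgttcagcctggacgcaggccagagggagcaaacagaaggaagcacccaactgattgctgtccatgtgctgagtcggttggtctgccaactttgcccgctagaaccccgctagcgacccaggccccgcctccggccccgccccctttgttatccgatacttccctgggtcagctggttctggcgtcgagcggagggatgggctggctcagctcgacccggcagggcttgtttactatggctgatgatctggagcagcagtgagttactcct
Gm30657, chr5:118413532-118413831, minus strand: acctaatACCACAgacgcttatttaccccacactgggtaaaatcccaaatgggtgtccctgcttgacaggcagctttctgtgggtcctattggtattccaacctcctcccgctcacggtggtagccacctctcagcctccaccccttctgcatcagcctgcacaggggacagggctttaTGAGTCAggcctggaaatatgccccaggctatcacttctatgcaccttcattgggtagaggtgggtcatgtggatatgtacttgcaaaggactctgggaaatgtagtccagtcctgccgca

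These windows differ in base composition. The 9530077C05Rik window was rich in CG pairs, with an observed to expected CpG ratio of 0.797, and held no match to the motifs. The Sgcd window, upstream of a transcript of the gene of δ-sarcoglycan, a membrane protein of muscle, had a ratio of 0.469 and 1 TEAD match. The Gm30657 window had a ratio of 0.192 and held 1 AP-1 and 1 RUNX match. Over the region of Gm30657, fold enrichment was 10.4 and 9.47 in day 1 replicates 1 and 2, with no peak in replicate 3, and 18.6, 16.9 and 20.8 in the day 0 libraries. Over that of 9530077C05Rik it was 9.71 and 10.9 in day 1 replicates 1 and 2, with no peak in replicate 3, and 19.3, 17.4 and 15.9 at day 0. In both, every day 0 value was above every called day 1 value. At Sgcd it was 8.14 and 9.93 in day 1 replicates 1 and 2 and 16.4, 13.9 and 13.4 at day 0. At Abhd4, a lipase-like gene, the peaks were in day 1 replicates 2 and 3, with 7.39 and 5.67, against 13.4, 14.3 and 13.2 at day 0. The days did not overlap at either. The printed windows were chosen by day 0 value, which favours such a gap. At Zfp33b, which encodes a zinc finger protein, the groups overlapped, with 12.6 and 15.0 in day 1 replicates 1 and 2 and 18.7, 17.4 and 12.8 at day 0.

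Partly kept regions overlapped 9 annotated microRNA hairpins among 1005 in the RefSeq table, in 6 of the 6179 regions. Regions with no day 1 peak (day 0 only) overlapped 3 hairpins, in 3 of 11306 regions. Regions with a peak in every day 1 list (fully kept) overlapped 5, in 5 of 3592 regions. These counts are small and no order of the classes is read from them. The arms shown are those whose seed, bases 2 to 8 in capitals, is shared within a region, and that of Mir199b, whose hairpin lies inside Dnm1.
miR-132-3p: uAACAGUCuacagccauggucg
miR-212-3p: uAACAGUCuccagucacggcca
miR-199b-3p: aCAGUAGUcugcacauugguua
Mir132 and Mir212 lie side by side on chromosome 11 and their 3p arms share the seed AACAGUC. Their region, chr11:75173120-75173738, had fold enrichments of 3.20 and 5.11 in day 1 replicates 1 and 2, with no peak in replicate 3, and of 5.03, 3.45 and 4.32 at day 0. The called values of the days overlapped there. The Mir199b region, chr2:32317782-32318525, had 6.60 in day 1 replicate 2 alone, against 9.53, 8.65 and 5.86 in the day 0 libraries, of which the lowest was under the day 1 value.

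The partly kept class was the middle-sized one of the distal regions open at day 0. Of 21077 distal regions with a peak in every day 0 list, 29.3% were partly kept, 11306 had no day 1 peak (day 0 only) and 3592 had a peak in every day 1 list (fully kept). At gene ends, 26.7% of 8603 such regions were partly kept. Of the 21077 distal regions, 33.7% had a peak in day 1 replicate 1, 38.6% in replicate 2 and 20.5% in replicate 3. The number of partly kept regions rests on these libraries, and was 3828 without day 1 replicate 3 and 3879 without day 1 replicate 2. Without day 1 replicate 3 the fully kept regions numbered 5709 and the day 0 only regions 11540.

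Which day 1 libraries kept the peak was uneven. Both replicates 1 and 2 without replicate 3 held 2119 of the regions (34.3%), replicate 2 alone 2110 (34.1%) and replicate 1 alone 1213 (19.6%). Replicate 3 alone held 233 (3.77%), replicates 2 and 3 together 317 (5.13%) and replicates 1 and 3 together 187 (3.03%). Replicate 3 thus had a peak in 737 of the 6179 regions (11.9%), although it was the most deeply sequenced day 1 library. In all, 3556 regions (57.5%) had a peak in 1 day 1 list and 2623 (42.5%) in 2.

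**Figure D1:**
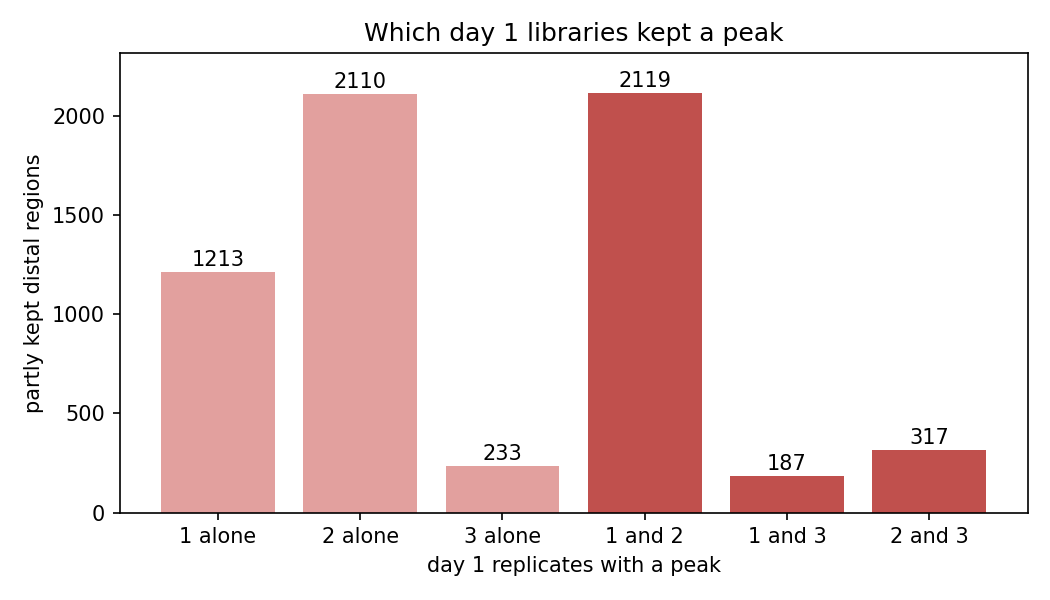
Number of partly kept distal regions (vertical axis) by the day 1 replicates that had a peak there (horizontal axis); pale bars are regions with 1 day 1 list and dark bars regions with 2. Replicates 1 and 2 together and replicate 2 alone hold 2119 and 2110 regions, and the bars with replicate 3 hold 187 to 317.

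Depth sets a floor on what can be called. Had a region kept its mean day 0 height per fragment sequenced, the 5442 regions without a peak in day 1 replicate 3 would have had a median of 14.9 fragments at the summit. Of these, 0.680% would have been under 6 fragments, the 5th percentile of summit heights in that list. For replicates 1 and 2 the medians were 9.58 and 11.0 fragments, and 4.44% and 1.71% would have been under the 5th percentile of 5 fragments. These values take the height alone and leave out the local background, which also enters the call. They also take the height per fragment to be the same on both days. In fully kept regions the median ratio to day 0 height was 1.04, 1.08 and 0.536 in day 1 replicates 1, 2 and 3. For replicate 3 the calculation therefore cannot show that the missing peaks would have been called.

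Where a partly kept region had a day 1 peak, the peak was in most regions lower than at day 0, and its median width was smaller. Fold enrichment over local background, the authors' value at the summit, had library medians of 5.94, 5.80 and 5.22 at day 1 and 9.77, 8.64 and 8.06 at day 0. The means of these medians were 5.66 ± 0.382 at day 1 and 8.83 ± 0.871 at day 0 (SD, n = 3 each). Summit height had medians of 1.83, 1.61 and 1.10 fragments per 1000000 at day 1 and 2.27, 2.34 and 1.64 at day 0. The lowest day 0 library thus fell between the day 1 libraries in height, while in fold enrichment the days did not overlap. Median peak width was 204, 232 and 168 bp at day 1 and 405, 348 and 288 bp at day 0. Fold enrichment and width also vary with depth, which was lower at day 1, and the day 1 values cover called peaks alone.

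Per region, the mean height of the called day 1 peaks over the mean day 0 height had a median of 0.788, with a 10th percentile of 0.387 and a 90th percentile of 1.40. It was below 1 in 4212 regions (68.2%) and above 1 in 1967. In fully kept regions it was below 1 in 2214 of 3592 (61.6%), where every day 1 mean includes replicate 3. Taken singly, day 1 replicates 1, 2 and 3 were below the day 0 mean in 46.7%, 42.5% and 89.6% of fully kept regions. Among partly kept regions with a peak in that library, these shares were 63.1%, 65.9% and 94.0%. By library the median ratio in partly kept regions was 0.845 in replicate 1, 0.801 in replicate 2 and 0.513 in replicate 3. In fully kept regions it was 1.04, 1.08 and 0.536 in the same libraries. Replicate 3 was therefore low in both classes, and in replicates 1 and 2 partly kept regions had lower ratios than fully kept regions.

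**Figure D2:**
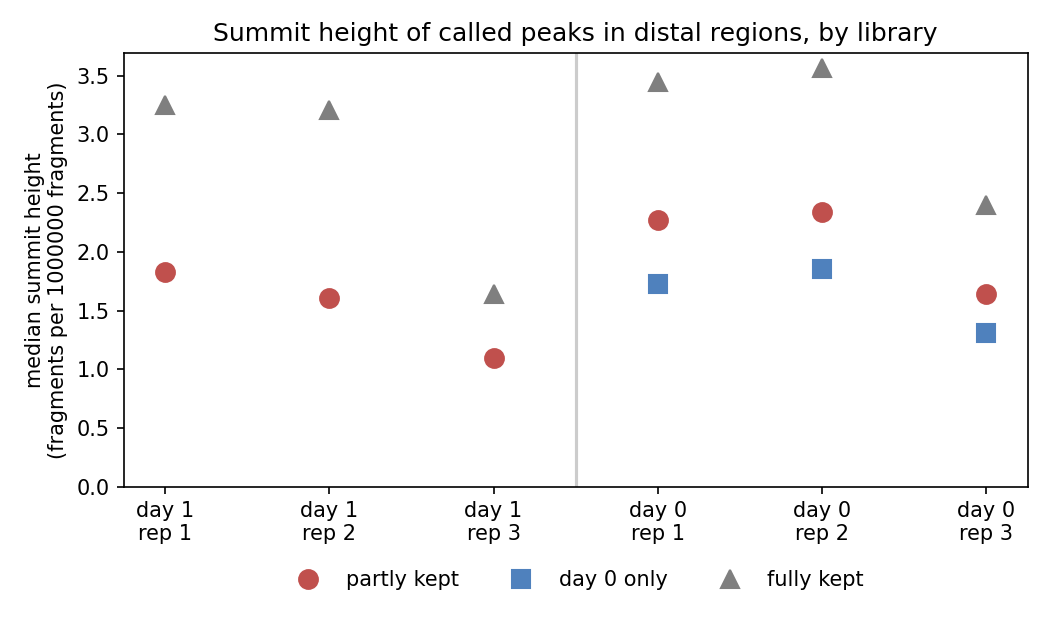
Median summit height in fragments per 1000000 fragments (vertical axis) of the peaks called in distal regions, by library (horizontal axis, day 1 left of day 0), for partly kept, day 0 only and fully kept regions. In every library the partly kept regions lie below the fully kept ones, and at day 0 above the day 0 only ones; day 1 replicate 3 has the lowest day 1 values, 1.10 and 1.64.

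Day 1 peaks in these regions lay nearer to the calling threshold than those in fully kept regions, though few were right at it. Their median −log10 q was 5.46 and 5.60 in day 1 replicates 1 and 2, against 11.3 and 13.2 in fully kept regions. In replicate 3 it was also lower than the 7.21 of fully kept regions. Of the 8802 highest peaks per region and library, 4789 (54.4%) had a deposited −log10 q of at least 5 and 366 (4.16%) one under 2, where the lists end at 1.30. In 244 regions (3.95%) every day 1 peak was under 2. These shares were not counted for fully kept regions, and the part of the threshold in the missing day 1 peaks was not tested. At the other bound of the rule, 57 partly kept regions lay 1001 to 1100 bp from a gene end, with a median day 0 fold enrichment of 7.29. Just outside it, 73 otherwise like regions lay 901 to 1000 bp away, with a median of 6.93. The day 1 summit was close to the day 0 one. Over 8905 day 1 peaks, the median distance to the nearest day 0 summit was 19.0 bp, and 74.7% lay within 50 bp.

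At day 0, partly kept regions stood between the other distal classes in strength. Their median fold enrichment over the 3 day 0 libraries was 8.80, against 7.77 in day 0 only and 10.7 in fully kept regions. Median day 0 peak width followed the same order, at 347 ± 58.5 bp in partly kept, 276 ± 48.3 bp in day 0 only and 464 ± 60.8 bp in fully kept regions (SD, n = 3 each). The coefficient of variation of day 0 height between libraries was alike in all, at 22.4%, 22.2% and 22.7%. Regions kept in 2 day 1 lists had a median day 0 fold enrichment of 9.20 and those kept in 1 list of 8.54.

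With the 21077 distal regions ranked by day 0 fold enrichment and cut into 10 equal bins, the partly kept share moved less than the others. It was 24.2% in the lowest bin, 31.1% in bin 5 and 32.5% in the highest. Over the same bins, the day 0 only share was 69.3% in the lowest and 25.0% in the highest, and the fully kept share was 6.50% and 42.4%. Without day 1 replicate 3, where partly kept means a peak in 1 of 2 day 1 lists, the partly kept share ranged from 16.0% to 20.1% over the bins, with 17.9% in the highest. The share kept in 2 day 1 lists was 8.68% in the lowest and 17.0% in the highest bin, while the share kept in 1 list was 15.5% in both.

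**Figure D3:**
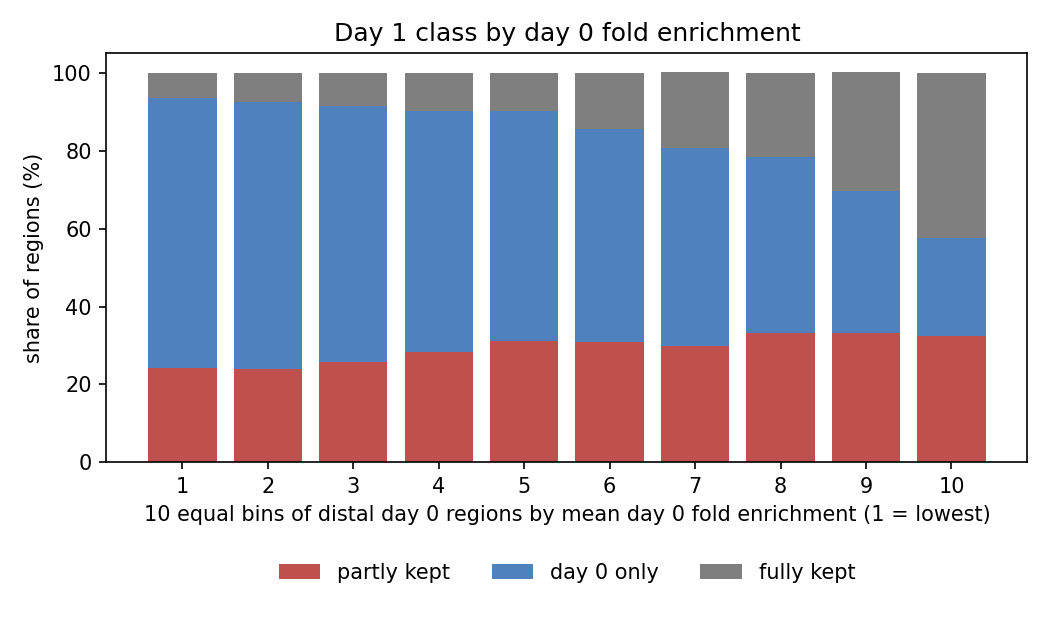
Share of distal day 0 regions (vertical axis, percent) that were partly kept, day 0 only or fully kept, in 10 equal bins of mean day 0 fold enrichment (horizontal axis, 1 is lowest). The partly kept share stays between 24.0% and 33.2%, while the fully kept share is 6.50% in the lowest bin and 42.4% in the highest.

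Each list was also cut by q to 12556 peaks, as many as day 1 replicate 3 had. Of the 6179 regions, 1602 (25.9%) then still had all 3 day 0 peaks and 2924 (47.3%) had none of them. A day 1 peak remained in 2956 (47.8%), and in 1185 (19.2%) a day 1 peak remained while no day 0 peak did. The day 0 lists were longer, so the cut removed more of their peaks, and no direction is read from these counts. With the rule applied to the equal lists themselves, 1194 distal regions were partly kept.

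In position as well, the partly kept regions stood between the other classes. A coding gene contained 55.1% of them, against 51.6% of day 0 only and 59.5% of fully kept regions. The nearest gene end was a median of 21.8 kb away, against 28.8 kb for day 0 only and 16.3 kb for fully kept regions. Among partly kept regions, 850 (13.8%) lay more than 100 kb from any gene end and 31.3% lay within 10 kb. The order of the 3 classes was the same in each of 3 equal groups of day 0 fold enrichment, with partly kept medians of 16.0, 21.0 and 27.5 kb in the low, middle and high groups. It was also the same without day 1 replicate 3, with medians of 23.2, 28.6 and 17.4 kb. Regions kept in 2 day 1 lists lay a median of 19.7 kb from a gene end and those kept in 1 list 23.4 kb.

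Annotated transcript starts set the classes further apart. A RefSeq start window overlapped 445 of 5944 partly kept regions (7.49%), 203 of 10861 day 0 only regions (1.87%) and 738 of 3454 fully kept regions (21.4%), and 6.84% of all 3 classes. The counts leave out chromosome 18, and the table holds windows for 17492 of 21887 coding genes. Of the 445, 306 overlapped a coding window and 139 a long noncoding RNA window alone. The share was 10.6% in regions kept in 2 day 1 lists and 5.19% in those kept in 1. In the low, middle and high groups of day 0 fold enrichment the partly kept share was 9.58%, 7.93% and 5.48%, and the fully kept share 12.4%, 22.6% and 23.1%. Without day 1 replicate 3 the shares of the classes were 5.67%, 1.98% and 17.4%.

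**Figure D4:**
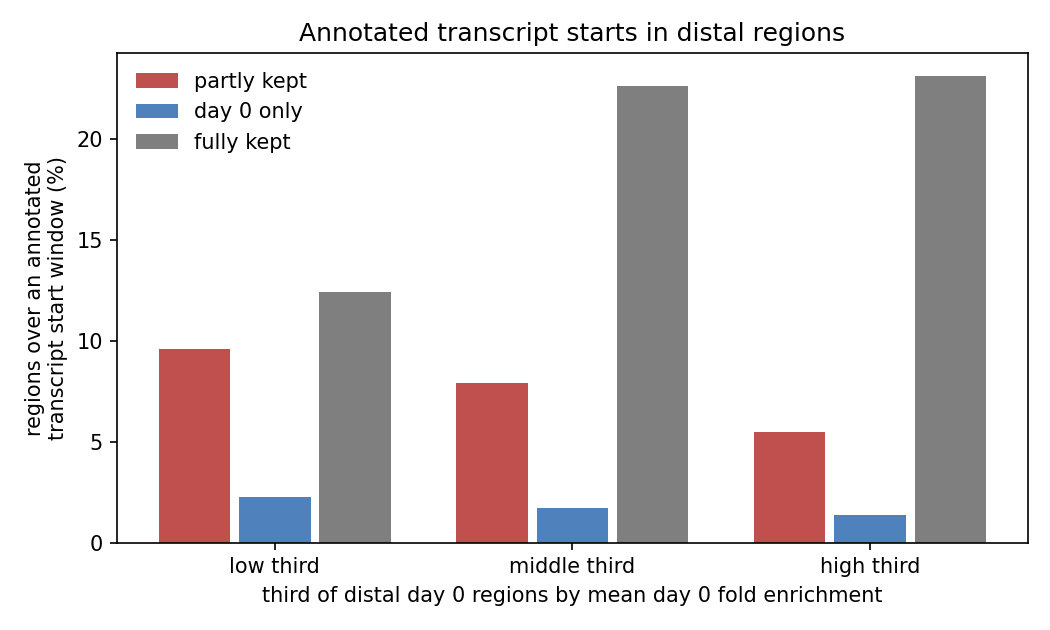
Share of distal regions that overlap an annotated transcript start window (vertical axis, percent) in 3 equal groups of mean day 0 fold enrichment (horizontal axis), for partly kept, day 0 only and fully kept regions. The partly kept share lies between the others in each group, at 9.58%, 7.93% and 5.48%.

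The base composition of these windows followed the class. Windows in partly kept regions had a median GC content of 58.3% and a median CpG ratio of 0.637, against 51.3% and 0.300 in day 0 only and 61.3% and 0.743 in fully kept regions. Over all 32851 windows of the table the medians were 52.7% and 0.384. The AP-1 motif, bound by FOS and JUN dimers, was in 10.8% of partly kept, 25.1% of day 0 only and 7.18% of fully kept windows, and in 7.81% of all windows. The RUNX motif was in 14.8%, 26.1% and 12.9%, against 16.8% of all windows, and the TEAD motif in 16.0%, 27.1% and 14.1%, against 14.7%. The C/EBP motif was in 11.2% of partly kept and 14.8% of day 0 only windows, against 10.8%. The AP-1 letters read the same on both strands.

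Base composition moved with the motif shares. Among windows with a CpG ratio under 0.6, AP-1 was in 19.0% of 205 partly kept, 29.1% of 165 day 0 only and 15.1% of 212 fully kept windows, and in 10.2% of 21086 in the table. Among windows at or above 0.6 it was in 3.75%, 7.89% and 3.99%, against 3.46% in the table. The RUNX motif did not keep the order of the classes in windows under 0.6. There it was in 19.0% of partly kept, 29.1% of day 0 only and 20.8% of fully kept windows, against 20.7% in the table. TEAD was there in 22.4%, 30.3% and 18.4%, against 17.3%, and C/EBP in 15.1%, 16.4% and 16.0%, against 13.2%. The Gm30657 window printed above is of the CpG-poor kind with an AP-1 match and the 9530077C05Rik window of the CpG-rich kind without one. The windows are a small share of the partly kept regions, and the sequence of the other regions was not used here.

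Partly kept regions were mixed with the other distal classes along the chromosomes. The next distal day 0 region on each side of a partly kept region was taken where the midpoints lay within 10 kb. Of these adjacent regions, 29.4% were partly kept, 51.9% day 0 only and 18.7% fully kept. By chromosome the partly kept share ran between 27.4% on chromosome 1 and 33.9% on chromosome 11, apart from 0 of 1 region on Y. The coding gene with the nearest end had a peak at a gene end in every day 1 list for 36.8% of the partly kept regions within 100 kb of a gene, 38.2% of day 0 only and 35.1% of fully kept regions. For every day 0 list these shares were 54.7%, 56.8% and 52.2%, so the nearest gene's own end was in a like state for all 3 classes.

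The strongest partly kept regions at day 0 had values far above their day 1 peaks, which choosing them by day 0 value favours. The highest, chr10:126267346-126268048, lay 252 kb from the nearest gene end and had fold enrichments of 5.94 and 7.76 in day 1 replicates 1 and 2, with no peak in replicate 3. Its day 0 values were 24.6, 21.3 and 19.2, a mean of 21.7 ± 2.73 (SD, n = 3). Next came the regions nearest to Reep3, which shapes the endoplasmic reticulum, and Adgrl4, an adhesion receptor of vessels. The Reep3 region, chr10:66928214-66928635, had 5.76 in day 1 replicate 1 alone, against 22.8, 20.7 and 20.3 in the day 0 libraries. The Adgrl4 region, chr3:151445882-151446530, had 11.3 in day 1 replicate 2 alone, against 21.4, 20.9 and 21.4 at day 0.

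The region 18.4 kb from Lpin2, a phosphatidate phosphatase gene, chr17:71164991-71165363, had 8.90 and 10.1 in day 1 replicates 1 and 2 and 19.7, 22.7 and 20.4 at day 0. The region 14.5 kb from Scp2, which encodes a sterol carrier protein, chr4:108058062-108058581, had 7.48 in day 1 replicate 1 and 21.5, 19.1 and 20.5 at day 0. The region 1.16 kb from Apol7a, of the apolipoprotein L family, chr15:77397674-77398234, kept more, with 13.7 and 9.55 in day 1 replicates 1 and 2 and 23.3, 18.8 and 19.6 at day 0. In none of these regions did a called day 1 value reach the lowest day 0 value, a gap that the choice by day 0 value largely sets. The share of all partly kept regions with such a gap was not counted. The rest of the 12 highest regions with a gene within 100 kb lay nearest to 1110004F10Rik, Dars, Mettl7b, Gja1, Yae1d1, Mybpc1 and Npy5r, with day 0 means between 19.9 and 21.2. Of the 12, 6 had 1 day 1 list and 6 had 2. None had a peak in day 1 replicate 3, which only 11.9% of all partly kept regions had.

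**Figure D5:**
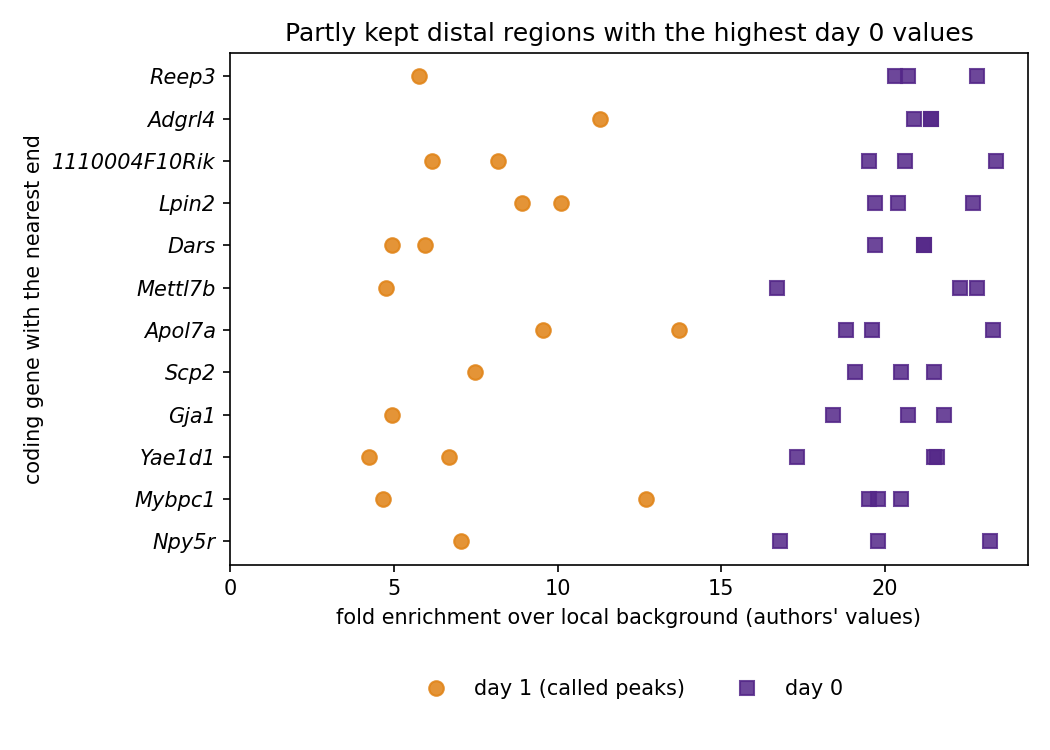
Fold enrichment over local background (horizontal axis) in each library, for the 12 partly kept distal regions with the highest mean day 0 fold enrichment and a coding gene within 100 kb (vertical axis, nearest gene end). Circles are called day 1 peaks, 1 or 2 per region, and squares are the 3 day 0 libraries. Every circle lies left of the squares of its region, which the choice of regions by day 0 value favours.

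Among regions kept in 2 day 1 lists and above the class median at day 0, the ratio of day 1 to day 0 height ran between 0.170 and 1.92. The lowest ratio was at chr16:22389066-22389523 inside Etv5, an ETS transcription factor gene of FGF and ERK signalling. There fold enrichment was 4.84 and 5.59 in day 1 replicates 1 and 2 and 22.1, 17.8 and 19.7 at day 0. The next lowest lay nearest to Atp6v1g3 (0.180), Plekhg6 (0.188), Nrip1 (0.196), Phlda1 (0.198) and Dars (0.205). Nrip1 encodes RIP140, a nuclear receptor corepressor of fat cells. Its region, chr16:76444659-76445298, lay 71.2 kb away and had 4.30 and 5.41 in day 1 replicates 1 and 3, and 15.7, 16.3 and 18.8 in the day 0 libraries.

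The highest ratios showed day 1 height above day 0 height. The region 7.52 kb from Rpl37, a ribosomal protein gene, chr15:5126473-5126848, had a ratio of 1.92, with fold enrichments of 7.31 and 11.6 in day 1 replicates 1 and 2 and 11.3, 10.6 and 5.96 at day 0. In fold enrichment the days overlapped there. The next lay nearest to Gm32280 (1.87), Terf2ip (1.74), Plcb4 (1.67), 1700088E04Rik (1.66) and Zfp184 (1.63). The Gm32280 region lies inside Zbtb16, the gene of the transcription factor PLZF, and had 5.57 and 6.84 in day 1 replicates 1 and 2 and 8.43, 10.4 and 9.12 at day 0. Its fold enrichment was thus lower in every called day 1 library, against the direction of its height ratio. All 6 of these regions had their day 1 peaks in replicates 1 and 2, as had 2119 of the 2623 regions kept in 2 lists. Choosing by height ratio also favours these libraries, since the median ratio was 0.513 in replicate 3 against 0.845 and 0.801.

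Within 100 kb of a gene end lay 5329 partly kept regions, nearest to 3838 genes, of which 2839 had 1 such region and 668 had 2. The most were 8, at Galnt2, an enzyme that starts O-linked glycosylation, and at Ets1, an ETS transcription factor gene. Around Galnt2, the other distal day 0 regions were 3 day 0 only and 0 fully kept, and around Ets1 they were 1 and 2. Next were Myo10, a filopodial myosin gene, and Eps8, an actin capping protein gene, with 7 each, beside 7 and 2 day 0 only regions and 0 fully kept regions at either. Fstl1, Ptpn1, Fmnl2, Arid5b, Timp3 and Gm6569 had 6 each. Fmnl2 encodes a formin of the actin cytoskeleton, Timp3 an inhibitor of matrix metalloproteinases, and Ptpn1 the phosphatase PTP1B, which acts on the insulin receptor.

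Around Ets1 the regions varied among themselves. Their day 0 means ran between 4.70 and 13.4. In the strongest, chr9:32823694-32824364, fold enrichment was 5.64 in day 1 replicate 2 alone, against 15.0, 13.0 and 12.1 at day 0. In the weakest, chr9:32671975-32672449, it was 6.03 and 4.55 in day 1 replicates 1 and 2 and 4.67, 4.70 and 4.73 in the day 0 libraries. The days did not overlap in the strongest region and overlapped in the weakest, and picking regions by day 0 value favours this contrast. No partly kept Ets1 or Galnt2 region had a peak in day 1 replicate 3, which only 11.9% of all partly kept regions had.

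At regulators of adipogenesis the classes varied gene by gene. Pparg and Cebpa had 0, with 5 and 2 day 0 only and 0 fully kept regions. Cebpb, an early activator of the program, had 1, beside 2 day 0 only and 2 fully kept. Cebpd, which acts with it, had 2, beside 0 and 1. Both partly kept Cebpd regions lay inside another gene, Spidr, at 69.3 and 95.4 kb from the end of Cebpd. Ebf2 had 3 of each class, and its partly kept regions, all inside the gene, had a day 1 peak in replicate 2 alone. In the strongest of them, chr14:67272234-67272841, fold enrichment was 5.84 in that library and 9.09, 7.20 and 9.82 at day 0. Prdm16 had 1, with a peak in day 1 replicate 3 alone, of 6.09 against 10.4, 7.20 and 6.71 at day 0. Ppargc1a, whose product PGC-1α drives mitochondrial biogenesis, had 1, beside 1 day 0 only region. Ucp1 had no distal day 0 region and Fabp4 had 1 that was fully kept.

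Among the RUNX genes and their partner, Runx1 had 4 partly kept, 2 day 0 only and 3 fully kept regions, Runx2 had 1, 0 and 0, and Cbfb, which encodes the β subunit that RUNX proteins bind, had 2, 0 and 0. The region inside Cbfb, 16.0 kb from its end, chr8:105186536-105186875, had 5.79 and 5.38 in day 1 replicates 1 and 2, with no peak in replicate 3, and 18.0, 16.0 and 17.2 at day 0. The other Cbfb region, 9.30 kb from the gene, had 4.75 and 6.35 at day 1 and 5.47, 6.27 and 6.13 at day 0. The days did not overlap in the first region and overlapped in the second. The Runx1 region with the highest day 0 mean, chr16:92620613-92621557, had 5.38 and 5.80 in day 1 replicates 1 and 2 and 13.3, 11.3 and 14.3 at day 0. The Runx2 region, chr17:44500270-44500828, had 4.67 in day 1 replicate 1 and a mean of 12.7 ± 1.86 (SD, n = 3) at day 0, with no day 0 value below 11.3.

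Gene lists were described by the share of their distal day 0 regions that were partly kept, which was 30.2% (5329 of 17660) near all coding genes. The RUNX list, which also holds corepressor partners, had 17 of 35 (48.6%), and thermogenic and brown fat genes 13 of 27 (48.1%). FGF and ERK feedback genes had 21 of 50 (42.0%) and integrins and laminins 23 of 59 (39.0%). Mature adipocyte lipid genes had 7 of 34 (20.6%), among them 1 each at Adipoq, Lpl and Plin2. Without day 1 replicate 3 the share near all coding genes was 18.5%. Thermogenic genes then had 18.5% and the RUNX list 31.4%, FGF and ERK feedback genes 24.0%, integrins and laminins 25.9% and lipid genes 14.7%.

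Named genes show what these shares rest on. Of the thermogenic list, Ppara, a nuclear receptor of fatty acid oxidation, had 3 partly kept regions and 1 fully kept, and Ppargc1b, a relative of Ppargc1a, had 3 partly kept and 3 day 0 only. One of the Ppara regions, chr15:85686577-85687481, had 7.29 and 5.75 in day 1 replicates 1 and 2 and 11.0, 9.34 and 9.20 at day 0, with a height ratio of 0.835. The other Ppara regions had height ratios above 1, at 1.35 for chr15:85710046-85710479 and 1.25 for chr15:85709407-85709761. Of the RUNX list, Tle3, a Groucho-type corepressor gene, had 3 partly kept and 3 day 0 only regions. Of the FGF list, Etv5 had 3 partly kept and no other distal day 0 region, and Dusp6, a phosphatase of ERK, had 3 and 1 day 0 only. Of the integrin list, Itgav, the αv subunit gene, had 4 partly kept, 3 day 0 only and 1 fully kept, and Itgb1, the β1 subunit gene, had 3, 1 and 1. The Itgav region chr2:83714646-83715033 had 11.1 and 8.27 in day 1 replicates 1 and 2 and 21.0, 16.9 and 13.5 at day 0, with no overlap between the days.

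The other lists lay nearer to the share of all coding genes or held few regions. Adipogenic transcription factors had 42 of 120 (35.0%), with 5 at Zfp516 and 4 each at Rxra and Ebf1. Precursor and anti-adipogenic genes had 20 of 60 (33.3%), extracellular matrix genes 40 of 123 (32.5%) and actin cytoskeleton genes 31 of 98 (31.6%). Wnt pathway genes had 24 of 83 (28.9%), YAP, TAZ and TEAD genes and targets 15 of 53 (28.3%) and TGF-β and BMP genes 34 of 123 (27.6%). Glucocorticoid and cAMP responsive genes had 15 of 56 (26.8%) and axon guidance genes 26 of 97 (26.8%). AP-1 family genes had 11 of 30 (36.7%), cell cycle genes 12 of 34 (35.3%) and housekeeping genes 7 of 21 (33.3%). Among lists of other cell types, endothelial markers had 7 of 19 (36.8%), immune markers 3 of 9 (33.3%) and bone and cartilage genes 6 of 24 (25.0%). Myogenic genes had 7 of 14, the highest share of any list, though from few regions. It was above the shares of the RUNX list (48.6%) and of thermogenic and brown fat genes (48.1%), so a high share was not particular to those lists. Without day 1 replicate 3 the partly kept shares of these lists were lower or, for immune markers, at 33.3%, as was the share near all coding genes, at 18.5%. Adipogenic transcription factors then had 19.2%, precursor genes 12 of 60, matrix genes 22.0% and actin genes 19.4%. Wnt genes had 14.5%, YAP, TAZ and TEAD genes 24.5%, TGF-β and BMP genes 14.6%, glucocorticoid and cAMP genes 23.2% and axon guidance genes 18.6%. AP-1 genes had 16.7%, cell cycle genes 20.6% and housekeeping genes 28.6%. Endothelial markers had 21.1%, myogenic genes 28.6% and bone and cartilage genes 20.8%.

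Matrix and muscle genes among these lists show the range of the values. Sparc, the gene of a collagen-binding matrix protein, had 4 partly kept regions and 1 day 0 only. In the strongest of the 4, chr11:55428105-55428661, fold enrichment was 5.71 and 7.24 in day 1 replicates 1 and 2 and 16.4, 13.6 and 15.6 at day 0. Col4a2, a basement membrane collagen gene, had 5 partly kept, 5 day 0 only and 1 fully kept, with partly kept day 0 means between 7.14 and 11.3. Pax3, a transcription factor gene of muscle precursors, had 3 partly kept regions. In the strongest of these, chr1:78057890-78058507, fold enrichment was 4.23 and 8.12 in day 1 replicates 2 and 3 and 15.4, 17.4 and 17.5 at day 0. In these strongest Sparc and Pax3 regions no day 1 value reached the day 0 range, which picking them by day 0 value favours. In the weakest Pax3 region, chr1:78189450-78190216, fold enrichment was 6.85 and 4.31 in day 1 replicates 2 and 3 and 6.36, 6.29 and 5.73 at day 0, so 1 day 1 value was above every day 0 value.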

How the data were processed

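ATAC-seq was done on 3 day 1 and 3 day 0 libraries. The submitters' processing notes name the build mm10 and the tools HOMER 4.11, Bowtie2 2.4.4, DiffBind 3.8.4, Trim Galore 0.6.7, MACS2 2.2.7.1, SAMtools 1.15.1 and deepTools 3.5.1. Peaks were called per library with MACS2 on paired-end fragments, with no control, a q cutoff of 0.05 and a local background over 10000 bp, per the file headers. The deposited pileup is the signal at the summit in whole fragments, not scaled to depth. The deposited −log10 p and −log10 q compare it with the local background, and the deposited fold enrichment is their ratio. All of them are the authors' values for single peaks. The signal covers whole fragments, so it marks fragment density and not the cut site.

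Peaks of the 6 lists were merged at 1 bp of overlap, leaving out 69 peaks that lie outside the autosomes, X and Y. The highest peak per region and library was kept. Heights were divided by the fragment totals in the headers. Distances run to the outer ends of 21887 coding genes of GRCm38.p6, without strand, so starts inside a gene count as distal. A region belongs to the nearest gene end within 100 kb. RefSeq windows and hairpins were matched by position. Calculations used Python 3.11.15, pandas 2.3.3 and numpy 2.4.6, and were checked on simulated peaks.

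The regions and gene lists were chosen with earlier results of these data known. Named genes are the 12 regions with the highest day 0 fold enrichment and a gene within 100 kb, the 10 genes with most regions, up to 3 genes per list, 12 regulators, and the 6 highest and 6 lowest height ratios. The highest region of all, without such a gene, and the printed windows and hairpins were chosen after their values were seen. No test was made, since the calls selected the regions. Motifs in windows of 2 sizes around summits were intended but not searched, since no genome sequence was used here.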

Additional observations from a re-analysis of the deposited data

How the results depend on the processing

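Depth and list length limit what a missing day 1 peak shows: it means no call at q 0.05 in that library, not closed chromatin. Day 1 values cover called peaks only. The values below are, in order and where they moved beyond counting error or the replicate spread, the share of distal day 0 regions partly kept, the share of these in 2 day 1 lists, the share inside a gene, the median distance to a gene end, the median day 0 fold enrichment and the share over a transcript start. In the regions as chosen they are 29.3%, 42.5%, 55.1%, 21.8 kb, 8.80 and 7.49%. Over 5 kb from gene ends they were 28.7%, 41.2%, 53.0%, 30.9 kb and, for starts, 5.28%. Over 0.5 kb the distance was 19.2 kb and the start share 8.83%. At −log10 q of at least 5 they were 24.7%, 46.2%, 19.5 kb, 9.79 and 11.0%. In equal lists of 12556 peaks the count was 1194, with 24.0%, 50.8%, 23.8 kb and 12.9. Leaving out each library in turn, the count was 3828 to 7139 and the values were 18.2% to 28.5%, 40.6% to 42.2%, 54.2% to 56.6%, 20.9 to 23.2 kb, 8.27 to 8.99 and 5.67% to 8.69%. Without a day 1 library the share in 2 of 3 lists cannot be given. Merging peaks at 50% overlap moved none of these values. With AP-1 searched only in the bases a region covers, it was in 9.89% of partly kept, 22.7% of day 0 only and 6.91% of fully kept windows. In the same bases RUNX was in 11.5%, 20.7% and 11.7%, TEAD in 12.8%, 20.7% and 12.7%, and C/EBP in 8.99%, 11.8% and 9.08%. For RUNX, TEAD and C/EBP, partly kept and fully kept windows were thus alike in covered bases. Over 11 alternatives and the AP-1 search in covered bases, 31 values moved and 46 did not, and the causes were not tested. Counting error here is a 95% interval that takes regions as independent, and the count was called moved beyond a factor of 1.5. The start shares under the alternatives, the covered bases and the class values without day 1 replicate 3 were added after seeing the data. No paired analysis was possible because no test was made and no label ties replicate numbers across the days.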
